A study of Mus musculus with 9 samples.

Results

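Blood coagulation and fibrinolysis were followed through 35 genes, chosen by symbol from the table of protein-coding genes. They filled 36 of its 22053 rows, because Klkb1 had 2 rows. The RNA-seq libraries came from 9 mouse tumours, 3 to a group. Liver metastases of the line N134-RHAMMB (metastases 1, 2 and 3) and subcutaneous tumours of the same line (N134-RHAMMB tumours 1, 2 and 4) were set against subcutaneous tumours of the line N134 (N134 tumours 1, 2 and 3). N134 is a mouse pancreatic neuroendocrine tumour line, and RHAMMB is an isoform of RHAMM, the hyaluronan-binding protein encoded by Hmmr. All cells were grown in NOD.Cg-PrkdcscidIl2rgtm1Wjl/SzJ (NSG) mice, which have no mature lymphocytes but keep their own liver, vessels, platelets and macrophages. Cells were given under the skin or through the tail vein, so the site of growth and the route of injection cannot be told apart. Each group comes from 1 cell line, and the promoter and species of the RHAMMB construct are not stated in the labels. Nothing in the labels says whether each replicate is its own animal. The p-values therefore reflect only the spread among these libraries, part of which may be technical.

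Clotting is a chain of proteases that ends with thrombin, which cuts fibrinogen into fibrin. Tissue factor on cell surfaces starts the chain with factor VII, the contact factors XII and XI can start it from surfaces, and factors V and VIII are cofactors. Most soluble factors are secreted by hepatocytes, and several need vitamin K for the carboxylation of glutamate residues. Protein C, protein S, thrombomodulin and tissue factor pathway inhibitor hold the chain in check, and plasmin, made from plasminogen by tissue-type and urokinase-type activators, dissolves fibrin.

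Values are FPKM, which are fragments per kilobase scaled to library size, so levels of different genes can be compared per length. Depth was estimated from the smallest steps in the values at 14.6 to 18.3 M (mega) fragments. A single fragment on 2 kb of RNA then gives 0.0273 to 0.0343 FPKM, so values near that size rest on a few fragments. Islet genes were read in every library. The summed level of 12 islet genes was 43105 to 48462 FPKM in metastases, 31690 to 37365 FPKM in N134-RHAMMB tumours and 37788 to 41768 FPKM in N134 tumours. Ins2 held most of these sums, at 34621 to 38504, 21154 to 28390 and 30636 to 34119 FPKM in the same order, so they mostly follow 1 gene. The summed level of 15 hepatocyte markers was 5920 to 6072 FPKM in metastases, against 394 to 491 FPKM in N134-RHAMMB tumours and 421 to 512 FPKM in N134 tumours. Ttr, which islet cells also make, held most of the subcutaneous sums, at 282 to 390 FPKM in N134-RHAMMB tumours and 334 to 427 FPKM in N134 tumours, while the more specific markers Alb and Ahsg stayed at 1.60 FPKM or less. Skeletal muscle transcripts were found in N134-RHAMMB tumours 2 and 4, and the muscle list summed to 17.9 to 232 FPKM in that group, against 12.9 to 22.7 FPKM in N134 tumours. Metastasis 2 stood apart from the other metastases, with Pearson's r across genes of 0.946 and 0.948 against 0.979 between metastases 1 and 3.

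The 35 genes fell into 2 sets by where they were read. A set of 19 reached 1 FPKM in every metastasis and, but for F7 in 1 library, in none of the 6 subcutaneous tumours. These were Fga, Fgb, Fgg, F13b, F2, F5, F7, F9, F10, F11, F12, Klkb1, Kng1, Proc, Proz, Plg, Cpb2, Hrg and Habp2, which encode plasma proteins known to be secreted by the liver. They passed the filter on low values (at least 1 FPKM in at least 3 libraries) only through the metastases, so they had to differ. Their count supports nothing, and neither do the adjusted p-values given below for their differences between metastases and tumours. The other 16 passed it through subcutaneous tumours as well. The 35 genes together took 0.136% to 0.170% of all FPKM in metastases, against 0.0269% to 0.0291% in the N134-RHAMMB group and 0.0261% to 0.0315% in the N134 group.

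In metastases against N134-RHAMMB tumours, limma called 20 of the 35 genes higher and 1 lower, and 14 did not pass. Over all 12854 genes tested, 6.56% were called (5.04% higher and 1.52% lower). Of the 20, 19 were the set above, and the other was Tfpi2. The median log2 difference of the 35 genes was 1.47, beside -0.06 over all genes tested. It includes 4 genes listed at 0 in N134-RHAMMB tumours (Cpb2, F11, F13b and Habp2), and without them the median was 1.12. As with the counts, the filter sets much of these medians. In metastases against N134 tumours, 21 were called higher and 4 lower, beside 9.93% of all genes (5.69% higher and 4.23% lower). The additional gene called higher was Hgfac, and those called lower were F13a1, Plat, Plau and Plaur. Here the median was 1.50, and 1.47 without Cpb2, beside -0.03 over all genes. In N134-RHAMMB against N134 tumours, limma called 0 of 35, beside 0.194% of all genes (0.0778% higher and 0.117% lower). At an unadjusted p under 0.05 there were 6 of 35 (17.1%), beside 12.8% of all genes. Limma with library weights called 7 (20%), beside 20.5% of all genes, of which F7, F8 and Hgfac were higher and Plat, Plau, Plaur and Pros1 lower in N134-RHAMMB tumours. The median was -0.01, beside 0.01 over all genes. That background rests on single libraries: without 1 library at a time limma called from 0 to 193 genes in all, with 0 of the 35 members each time. The count was 0 without N134 tumour 1, 2 or 3. Dropping N134-RHAMMB tumour 1, 2 or 4 gave 8, 2 and 2, and dropping metastasis 2 gave 193. The 3 comparisons share groups, so they are not independent of each other. Separation of the values alone was common: over all genes tested, values did not overlap in 19.8% between metastases and N134-RHAMMB tumours, 25.7% between metastases and N134 tumours and 25.3% between the subcutaneous tumours.

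**Figure D1:**
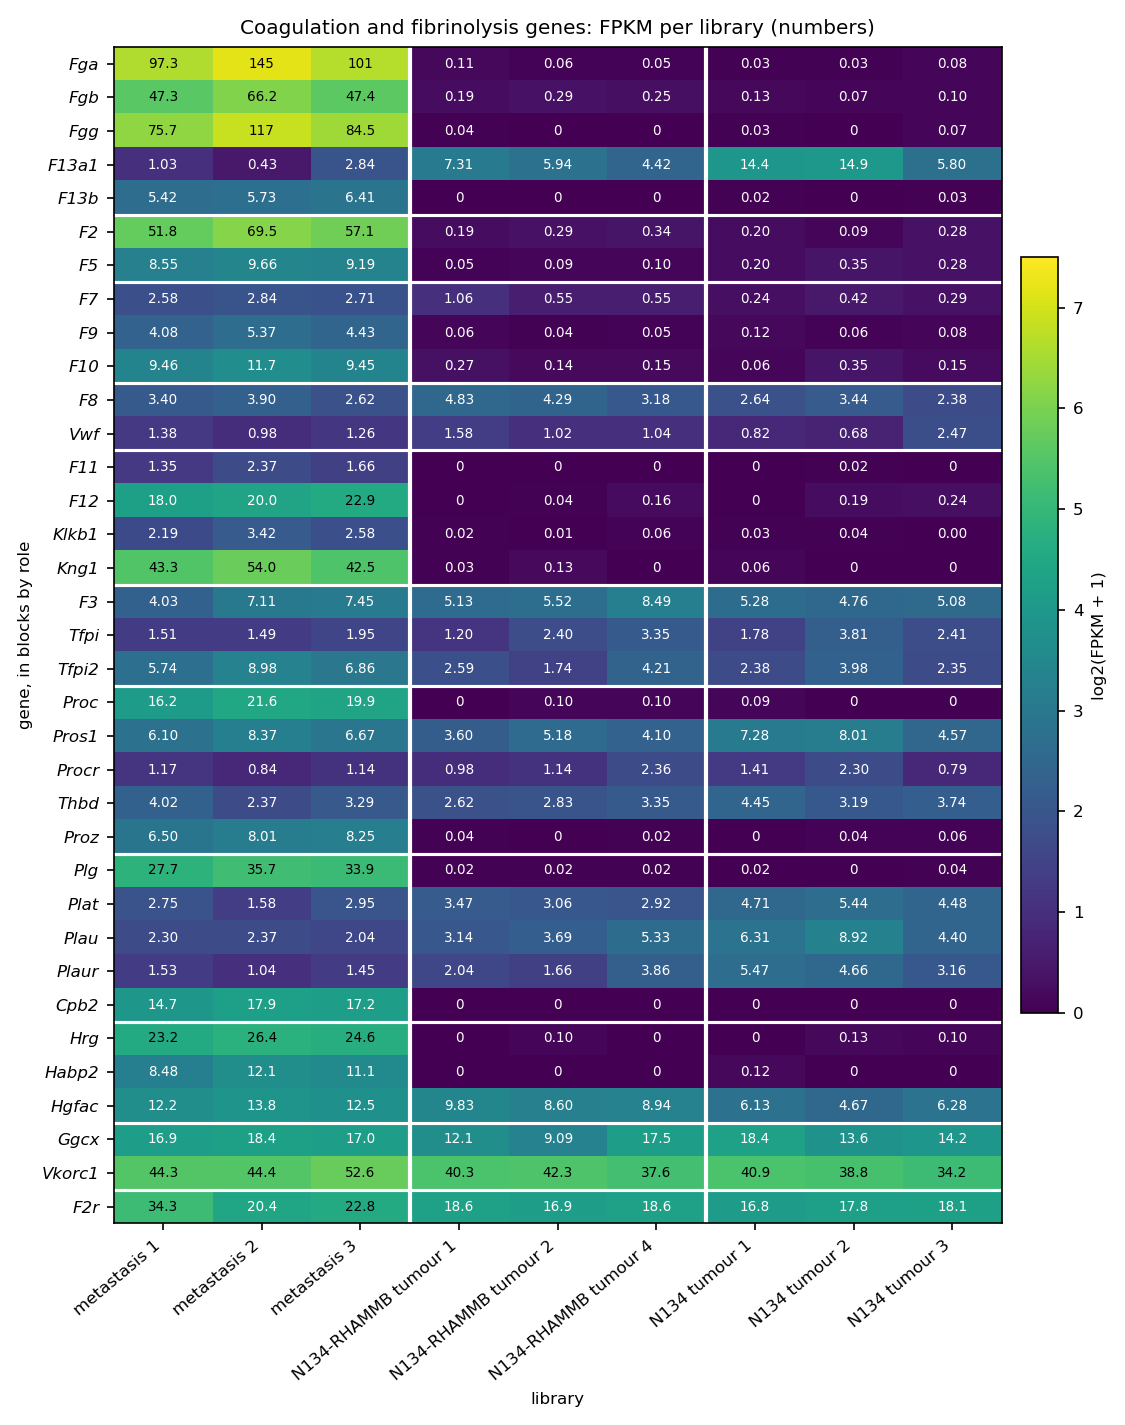
FPKM of each of the 35 genes (rows, in blocks by role) in each of the 9 libraries (columns, metastases at the left, then N134-RHAMMB tumours and N134 tumours). Colour is log2(FPKM + 1) and the printed number is FPKM. The 19 genes read in metastases stand as bright cells in the 3 columns at the left, from F11 at 1.35 to Fga at 145 FPKM, and F3, F8, Ggcx, Vkorc1 and F2r are read in all 9.

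Fibrinogen, the precursor of fibrin, is built from 3 chains encoded by Fga, Fgb and Fgg. These genes lie next to each other in 42.1 kb of chromosome 3 (GRCm38, 83007724 to 83049863), with no other protein-coding gene between them and Fgb on the opposite strand. Fga (ENSMUSG00000028001, chromosome 3, 83026076 to 83033627) stood at 97.3, 145 and 101 FPKM in metastases 1 to 3, set against 0.114, 0.0569 and 0.0496 in the N134-RHAMMB and 0.0267, 0.0268 and 0.0841 in the N134 tumours. Fgb (ENSMUSG00000033831, chromosome 3, 83040141 to 83049863) stood at 47.3, 66.2 and 47.4 FPKM in metastases 1 to 3, set against 0.189, 0.290 and 0.250 in the N134-RHAMMB and 0.125, 0.0682 and 0.102 in the N134 tumours. Fgg (ENSMUSG00000033860, chromosome 3, 83007724 to 83015049) stood at 75.7, 117 and 84.5 FPKM in metastases 1 to 3, set against 0.0366, 0 and 0 in the N134-RHAMMB and 0.0343, 0 and 0.0722 in the N134 tumours. For all 3 chains every metastasis lay far above every subcutaneous tumour, and the highest subcutaneous value was 0.290 FPKM (Fgb). Fga, the highest of the 3, exceeded N134-RHAMMB tumours in metastases by 6.73 on the log2(FPKM + 1) scale (SE 0.17, adjusted p = 2.33e-09) and N134 tumours by 6.76 on the log2(FPKM + 1) scale (SE 0.17, adjusted p = 2.40e-09). Fgg differed by 6.50 on the log2(FPKM + 1) scale (SE 0.17, adjusted p = 2.50e-09) and Fgb by 5.44 on the log2(FPKM + 1) scale (SE 0.16, adjusted p = 4.12e-09) from N134-RHAMMB tumours. In these bulk samples, more cells of a type and more RNA per cell cannot be told apart. The hepatocyte marker Alb stood at 1504, 1410 and 1609 FPKM in metastases, against 0.481 to 0.720 FPKM in N134-RHAMMB tumours and 1.14 to 1.60 FPKM in N134 tumours. Of 15 hepatocyte markers, 14 were higher in metastases than in N134-RHAMMB tumours and 13 than in N134 tumours. Ahsg, Hpx, Cps1 and Cyp3a11 passed the filter only through the metastases and so had to be higher, so the filter sets part of these counts. The part of hepatocytes in the clotting genes was not tested.

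The chains kept nearly the same proportion in each metastasis. Fga was 2.06, 2.18 and 2.14 times the level of Fgb in metastases 1, 2 and 3, and 1.28, 1.24 and 1.20 times that of Fgg. The fibrinogen chains together made up 36.3%, 42.5% and 35.7% of the FPKM of all 35 genes in those metastases, against 0.228% to 0.296% in the N134-RHAMMB group and 0.0675% to 0.222% in the N134 group.

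Promoters are shown for the fibrinogen chains and prothrombin, which were read in metastases and hardly at all in subcutaneous tumours, and for tissue factor (F3), which was read in every library. Each is 300 bases, from 250 before to 50 after the start of the RefSeq gene (GRCm38.p6), 5′ to 3′ on the gene's strand. Capitals mark ATTAAC or its reverse complement GTTAAT, the core of the motif of HNF1, a liver and islet transcription factor.
Fga (chr3:83025903-83026202, plus strand): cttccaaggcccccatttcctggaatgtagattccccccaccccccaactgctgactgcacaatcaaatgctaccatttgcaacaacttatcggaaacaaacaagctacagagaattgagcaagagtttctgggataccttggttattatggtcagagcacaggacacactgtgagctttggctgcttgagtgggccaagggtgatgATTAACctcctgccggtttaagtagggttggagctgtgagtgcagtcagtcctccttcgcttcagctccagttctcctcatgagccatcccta
Fgb (chr3:83049814-83050113, minus strand): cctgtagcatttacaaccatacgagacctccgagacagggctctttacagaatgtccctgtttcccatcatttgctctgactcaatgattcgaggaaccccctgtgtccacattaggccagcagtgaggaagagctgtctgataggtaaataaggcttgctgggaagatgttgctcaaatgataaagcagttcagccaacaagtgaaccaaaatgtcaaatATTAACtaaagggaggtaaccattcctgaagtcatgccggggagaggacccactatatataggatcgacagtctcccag
Fgg (chr3:83007474-83007773, plus strand): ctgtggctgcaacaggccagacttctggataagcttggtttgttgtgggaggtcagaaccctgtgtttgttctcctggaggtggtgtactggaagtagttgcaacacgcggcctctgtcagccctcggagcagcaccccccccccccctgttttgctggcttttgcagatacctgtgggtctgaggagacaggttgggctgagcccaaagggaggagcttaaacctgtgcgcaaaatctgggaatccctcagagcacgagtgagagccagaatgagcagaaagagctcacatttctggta
F2 (chr2:91636408-91636707, minus strand): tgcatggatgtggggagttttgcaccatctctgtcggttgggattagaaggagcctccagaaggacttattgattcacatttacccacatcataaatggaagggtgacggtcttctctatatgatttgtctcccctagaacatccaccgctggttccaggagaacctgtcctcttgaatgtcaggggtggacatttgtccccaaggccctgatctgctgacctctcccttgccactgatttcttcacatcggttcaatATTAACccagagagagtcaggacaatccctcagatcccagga
F3 (chr3:121723287-121723586, plus strand): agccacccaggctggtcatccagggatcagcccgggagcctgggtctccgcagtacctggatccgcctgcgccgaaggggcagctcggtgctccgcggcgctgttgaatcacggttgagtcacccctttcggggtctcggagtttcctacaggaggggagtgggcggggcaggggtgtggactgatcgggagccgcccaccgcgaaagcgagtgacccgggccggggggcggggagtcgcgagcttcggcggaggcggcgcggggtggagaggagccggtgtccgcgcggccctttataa
The letters occurred in 3 of the 5 windows, at bases 208 to 213 of Fga, 222 to 227 of Fgb and 259 to 264 of F2, and not in Fgg or F3. The match in F2 lies after the RefSeq start, and that in Fga lies past the gene start given above, which differs from that of RefSeq. F3 had 32 CpG pairs and a GC content of 70.3%, against 3 to 5 CpG pairs and 46.3% to 55.3% in the other 4. A window was matched for 28 of the 35 genes. A gene counts if any of its windows holds the letters, and the 12 others below had 16 windows. The share over all windows counts each window singly, so the measures are not quite alike. Of the genes that passed the filter only through the metastases, 6 of 16 held the HNF1 core (Fga, Fgb, F2, F13b, Habp2 and Proz). So did 2 of 12 others (Hgfac and Tfpi2), beside 7.10% of all 32841 windows. TTGCNNAA, a form of the C/EBP motif, was held by 8 of 16 and 3 of 12, beside 10.8% of all windows. CAAAGTCCA, an HNF4 motif, was found in 0 of the 28 genes and in 0.475% of all windows. TTGCGCAA, a case of TTGCNNAA, was found in 0 of 28 and 0.183%. Both strands were searched, and TATAAA on the gene's own strand was held by 1 of 16 (Hrg) and 0 of 12, beside 8.32%. Such a match is a description of letters and not of a bound site.

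Prothrombin and factor V followed fibrinogen. F2 (ENSMUSG00000027249, chromosome 2, 91625320 to 91636414), the zymogen of thrombin, stood at 51.8, 69.5 and 57.1 FPKM in metastases 1 to 3, set against 0.194, 0.287 and 0.338 in the N134-RHAMMB and 0.196, 0.0862 and 0.278 in the N134 tumours. The difference was 5.56 on the log2(FPKM + 1) scale (SE 0.16, adjusted p = 3.04e-09) against N134-RHAMMB tumours and 5.66 on the log2(FPKM + 1) scale (SE 0.16, adjusted p = 2.88e-09) against N134 tumours. F5, the cofactor of factor X, stood at 8.55, 9.66 and 9.19 FPKM in metastases 1 to 3, set against 0.0482, 0.0893 and 0.0955 in the N134-RHAMMB and 0.197, 0.354 and 0.281 in the N134 tumours. Metastases exceeded N134-RHAMMB tumours by 3.23 on the log2(FPKM + 1) scale (SE 0.14, adjusted p = 5.28e-08). In neither gene did metastases overlap either group of tumours. Within the subcutaneous tumours F5 was lower in all 3 N134-RHAMMB tumours than in any N134 tumour, at levels under 1 FPKM, and that difference of -0.24 did not pass (adjusted p = 0.493, 0.0594 to 0.911 over the alternatives).

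The vitamin K-dependent proteases F7, F10 and F9 were lower in level than prothrombin. F7 and F10 lie beside each other and beside Proz in 50.0 kb of chromosome 8 (13026034 to 13076026), with 1.50 kb between F7 and F10 and 4.24 kb between F10 and Proz. F7, which tissue factor binds to start clotting, stood at 2.59, 2.84 and 2.72 FPKM in metastases 1 to 3, set against 1.06, 0.552 and 0.550 in the N134-RHAMMB and 0.241, 0.424 and 0.289 in the N134 tumours. F10, the protease that activates prothrombin, stood at 9.46, 11.7 and 9.45 FPKM in metastases 1 to 3, set against 0.268, 0.139 and 0.149 in the N134-RHAMMB and 0.0638, 0.349 and 0.154 in the N134 tumours. Proz, the cofactor with which a serpin inhibits factor X, stood at 6.499, 8.01 and 8.25 FPKM in metastases 1 to 3, set against 0.0413, 0 and 0.0239 in the N134-RHAMMB and 0, 0.0419 and 0.0591 in the N134 tumours. The neighbours had unequal levels in metastases, F7 the lowest of the 3. F7 was also the one gene of the set of 19 with a subcutaneous value of 1 FPKM or more, in N134-RHAMMB tumour 1. Its difference in metastases was 1.12 on the log2(FPKM + 1) scale (SE 0.16, adjusted p = 0.00103) against N134-RHAMMB tumours and 1.50 on the log2(FPKM + 1) scale (SE 0.16, adjusted p = 1.06e-04) against N134 tumours. The call against N134-RHAMMB tumours was lost when N134-RHAMMB tumours 2 and 4, those with muscle transcripts, were left out (0.85, adjusted p = 0.116), which leaves 1 tumour in that group. Between N134-RHAMMB and N134 tumours F7 did not overlap, at 0.37 (adjusted p = 0.366), and passed only with library weights (adjusted p = 0.0130). F9 (ENSMUSG00000031138, chromosome X, 59999464 to 60030759), the X-linked protease that works with factor VIII, stood at 4.08, 5.37 and 4.43 FPKM in metastases 1 to 3, set against 0.0630, 0.0412 and 0.0458 in the N134-RHAMMB and 0.123, 0.0593 and 0.0844 in the N134 tumours. It differed by 2.42 on the log2(FPKM + 1) scale (SE 0.14, adjusted p = 7.91e-07) from N134-RHAMMB tumours. F10 and Proz exceeded the N134-RHAMMB level by 3.24 (adjusted p = 1.62e-07) and 3.07 (adjusted p = 1.20e-07).

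The contact system was read in metastases as well, with a wide span of levels. Kng1 (ENSMUSG00000022875, chromosome 16, 23057865 to 23082068), which encodes the kininogen that carries the contact proteases, stood at 43.3, 54.0 and 42.5 FPKM in metastases 1 to 3, set against 0.0340, 0.133 and 0 in the N134-RHAMMB and 0.0649, 0 and 0 in the N134 tumours. Its paralog Kng2 stood at 10.3, 12.9 and 8.08 FPKM in metastases, and the sharing of reads between the 2 makes both values uncertain. F12, the contact factor that starts the system, stood at 18.0, 20.0 and 22.9 FPKM in metastases 1 to 3, set against 0, 0.0391 and 0.165 in the N134-RHAMMB and 0, 0.187 and 0.239 in the N134 tumours. F11, the protease that activates factor IX, had the lowest metastasis mean of the 19 genes. It stood at 1.35, 2.37 and 1.66 FPKM in metastases, was listed at 0 in N134 tumours 1 and 3 and throughout the N134-RHAMMB group, and stood at 0.0242 FPKM in N134 tumour 2. Klkb1, plasma prekallikrein, lies 4.66 kb from F11 on chromosome 8. The row used, ENSMUSG00000109764, stood at 2.20, 3.42 and 2.58 FPKM in metastases 1 to 3, set against 0.0206, 0.0140 and 0.0607 in the N134-RHAMMB and 0.0291, 0.0389 and 1.12e-07 in the N134 tumours. The other row, ENSMUSG00000031640, overlaps it on the same strand, is named Gm45753 in GENCODE M21, and stood at 1.16, 0.743 and 1.67 FPKM in metastases and at 0.0737 FPKM or less in the tumours. Metastases exceeded N134-RHAMMB tumours by 5.49 (adjusted p = 2.72e-09) for Kng1, 4.31 (adjusted p = 2.12e-08) for F12 and 1.84 (adjusted p = 1.55e-05) for Klkb1. No contact gene's metastasis values overlapped those of either tumour group.

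Plasminogen and the regulators secreted by the liver had the same pattern. Plg (ENSMUSG00000059481, chromosome 17, 12378609 to 12419384), the precursor of plasmin, stood at 27.7, 35.7 and 33.9 FPKM in metastases 1 to 3, set against 0.0209, 0.0209 and 0.0223 in the N134-RHAMMB and 0.0195, 0 and 0.0408 in the N134 tumours. Cpb2, a carboxypeptidase that slows fibrinolysis, stood at 14.7, 17.9 and 17.2 FPKM in metastases and was listed at 0 in all 6 tumours. Proc, the protease protein C that inactivates factors V and VIII, stood at 16.2, 21.6 and 19.9 FPKM in metastases 1 to 3, set against 0, 0.0981 and 0.101 in the N134-RHAMMB and 0.0892, 0 and 0 in the N134 tumours. Metastases lay far above the tumours in all 3 genes, and metastasis 2 was the highest. Hrg, a histidine-rich glycoprotein that binds plasminogen and heparin, stood at 23.2, 26.5 and 24.6 FPKM in metastases 1 to 3, set against 0, 0.103 and 0 in the N134-RHAMMB and 0, 0.126 and 0.09995 in the N134 tumours. Habp2, a protease that activates factor VII and binds hyaluronan, stood at 8.48, 12.1 and 11.1 FPKM in metastases, was listed at 0 in N134 tumours 2 and 3 and throughout the N134-RHAMMB group, and stood at 0.118 FPKM in N134 tumour 1. F13b, the carrier subunit of the fibrin-crosslinking factor XIII, stood at 5.42, 5.73 and 6.41 FPKM in metastases, was listed at 0 throughout the N134-RHAMMB group and stood at 0.0253 FPKM or less in N134 tumours. Against N134-RHAMMB tumours the difference was 5.02 (adjusted p = 3.40e-09) for Plg, 4.24 (adjusted p = 1.80e-08) for Proc and 4.64 (adjusted p = 4.22e-09) for Hrg. The size of such differences depends on the pseudocount. With 0.1 in place of 1 the difference from N134-RHAMMB tumours was 9.36 for Fga, 5.71 for F5, 5.99 for Proz, 4.97 for F9, 4.42 for Klkb1 and 1.83 for F7, all still called. These genes passed the filter only through the metastases, so the calls are no support.

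**Figure D2:**
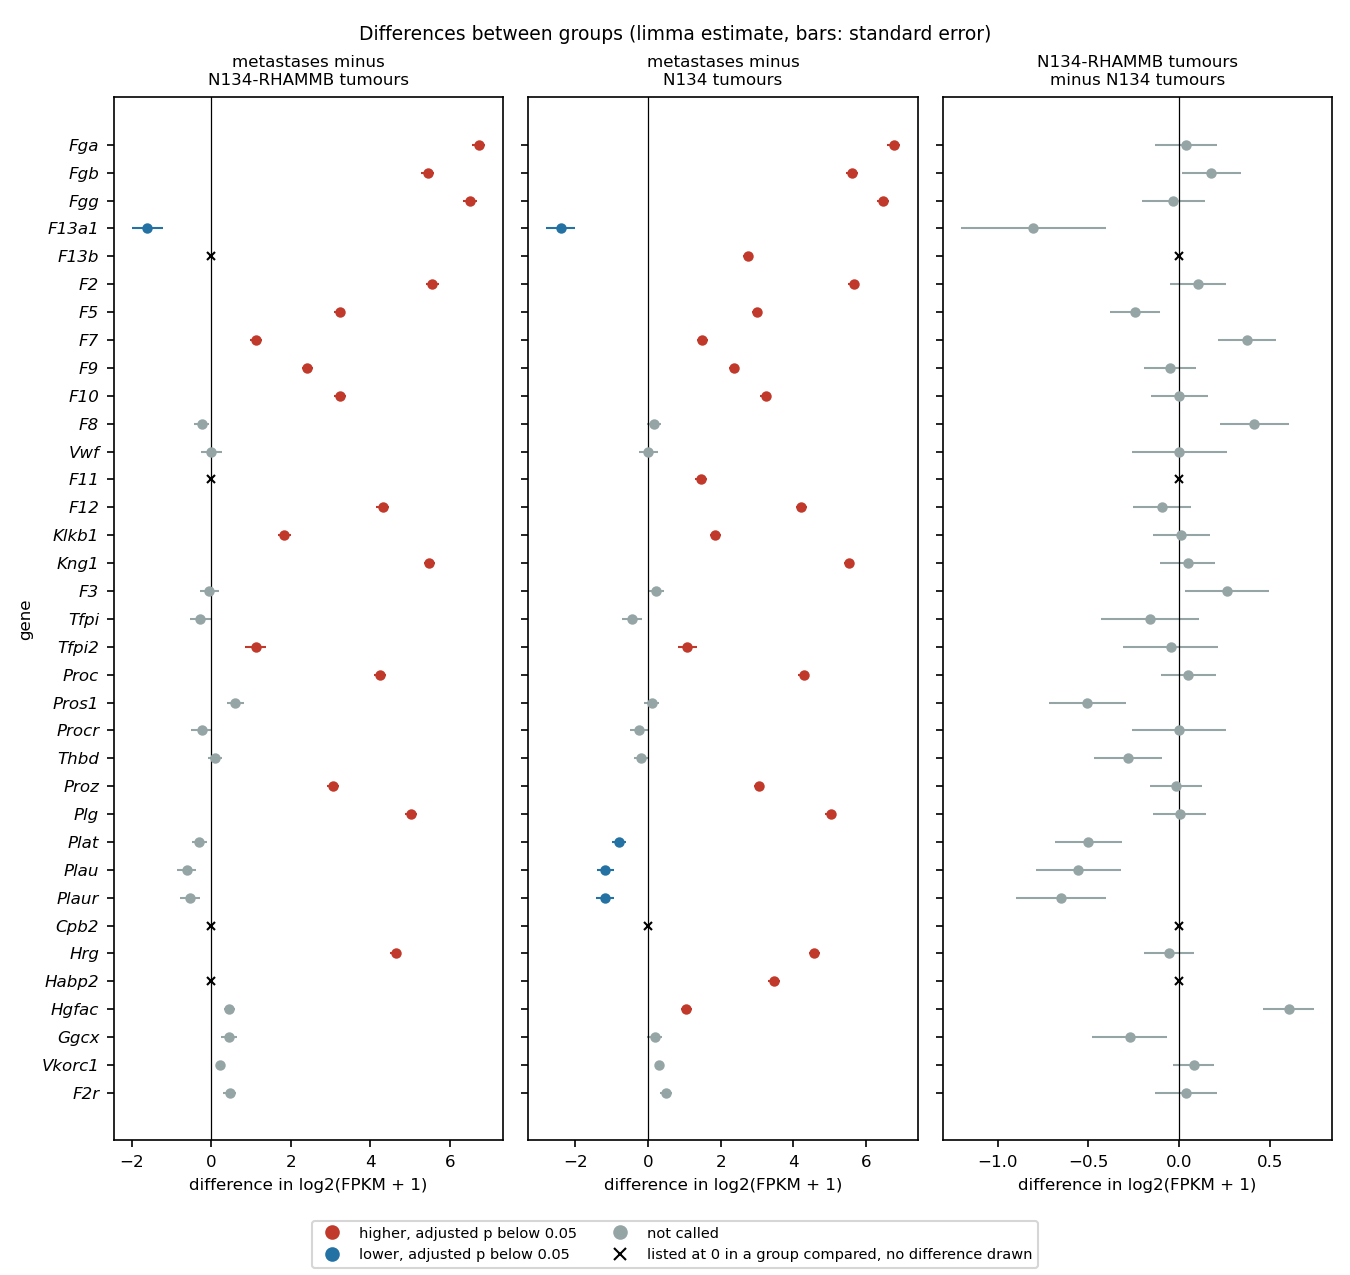
Difference in log2(FPKM + 1) between groups for the 35 genes (rows), with standard errors as bars, for metastases minus N134-RHAMMB tumours, metastases minus N134 tumours and N134-RHAMMB minus N134 tumours. Red and blue points are called higher and lower by limma, grey points are not called, and crosses mark genes listed at 0 in a group compared. Fga is at 6.73 and F13a1 at -1.61 in the panel at the left, and every point in the panel at the right is grey.

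Ordered by mean level in metastases, Fga (114 ± 26.2 FPKM, SD, n = 3) and Fgg (92.3 ± 21.7 FPKM) came highest. F2 (59.5 ± 9.09 FPKM), Fgb (53.6 ± 10.9 FPKM) and Kng1 (46.6 ± 6.42 FPKM) followed. Values overlapped between Fga and Fgg, and each of F2, Fgb and Kng1 overlapped the others. Within each metastasis, though, Fga exceeded Fgg, and F2 exceeded Fgb, which exceeded Kng1. Plg (32.4 ± 4.20 FPKM), Hrg (24.8 ± 1.63 FPKM), F12 (20.3 ± 2.43 FPKM), Proc (19.2 ± 2.74 FPKM) and Cpb2 (16.6 ± 1.68 FPKM) stood between 14.7 and 35.7 FPKM. Habp2, F10 and F5 overlapped in their values, at 10.5 ± 1.86, 10.2 ± 1.30 and 9.13 ± 0.557 FPKM, though F10 exceeded F5 within each metastasis. Proz (7.59 ± 0.951 FPKM), F13b (5.85 ± 0.507 FPKM) and F9 (4.63 ± 0.667 FPKM) were lower. Klkb1 (2.73 ± 0.628 FPKM), F7 (2.71 ± 0.127 FPKM) and F11 (1.79 ± 0.526 FPKM) stood lowest of the 19.

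The metastases were not alike in these genes. Metastasis 2 had the highest value in 16 of the 19, and its level was 0.970 to 1.58 times the mean of metastases 1 and 3, with a median of 1.24. The 3 fibrinogen chains stood at 1.40 (Fgb) to 1.46 times that mean, and F11 at 1.58 times. Over all 403 genes that passed the filter only through the metastases, metastasis 2 was highest in 47.9% and the median ratio was 1.10. Of the other pathway genes that passed it so, metastasis 2 was highest in 7 of 9, with a median ratio of 1.23. Among 15 hepatocyte markers metastasis 2 was highest in 5 and lowest in 5, with a median of 0.993. It was lowest for Alb, Cyp2e1, Cyp3a11, Ttr and Hnf4a. Of these, Ttr and Hnf4a were also read in the subcutaneous tumours, so the list does not follow hepatocytes alone. Hnf4a had means of 36.4, 34.4 and 35.8 FPKM in metastases, N134-RHAMMB and N134 tumours. F12, F13b and Proz were the 3 of the 19 members in which metastasis 2 was not highest. This comparison of 1 library with 2 others has no replicates and no test, and it was chosen after the values were seen.

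**Figure D3:**
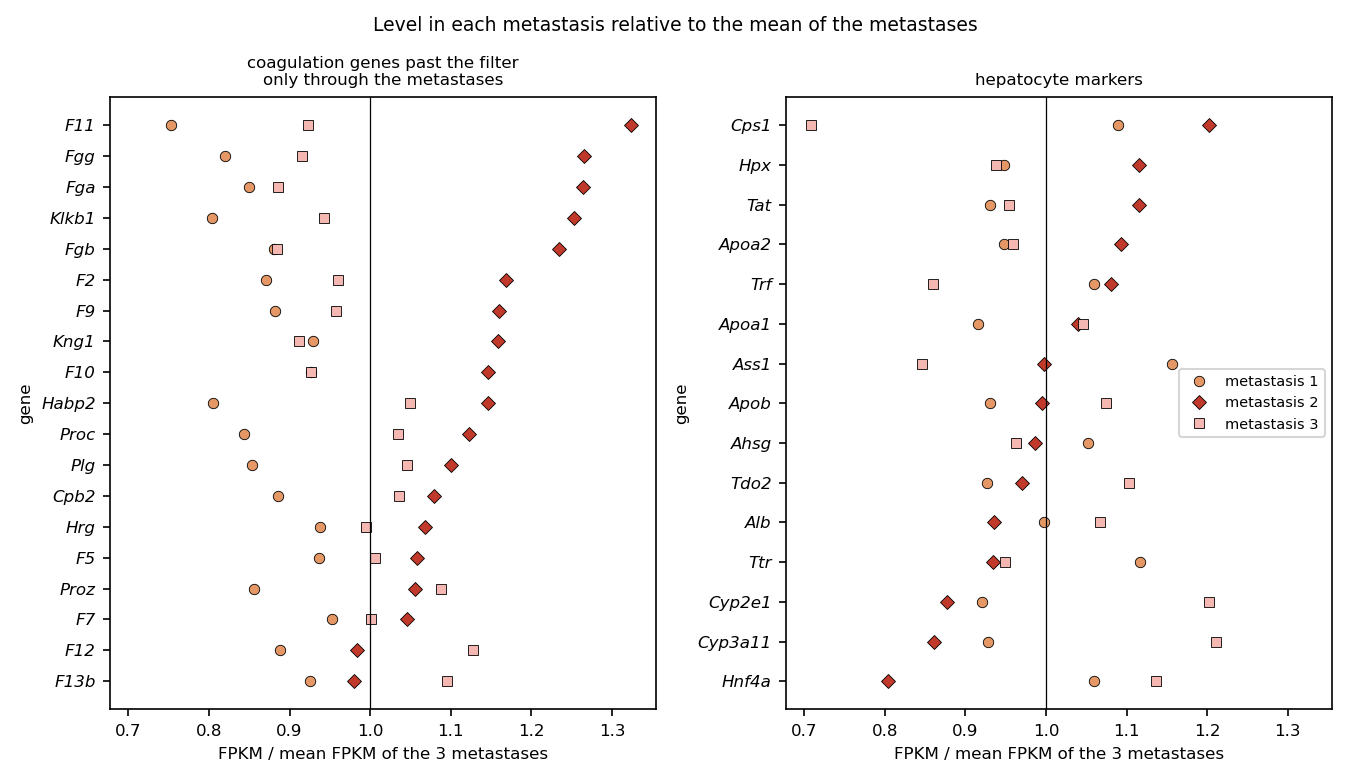
Level of each gene in metastasis 1 (circles), 2 (diamonds) and 3 (squares) divided by the mean of the 3, for the 19 coagulation genes read in metastases (left) and 15 hepatocyte markers (right). On the left the diamonds lie at the right end for 16 of 19 genes. On the right they lie there for 5 of 15.

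Tissue factor and its inhibitors were read in all groups. F3 (ENSMUSG00000028128, chromosome 3, 121723537 to 121735048), the receptor that starts clotting, stood at 4.03, 7.11 and 7.45 FPKM in metastases 1 to 3, set against 5.13, 5.52 and 8.49 in the N134-RHAMMB and 5.28, 4.76 and 5.08 in the N134 tumours. All 3 groups overlapped, and F3 differed by -0.05 (adjusted p = 0.953) in metastases against N134-RHAMMB tumours, 0.22 (adjusted p = 0.668) against N134 tumours and 0.26 (adjusted p = 0.684) between the tumours. Tfpi, which encodes its main inhibitor, stood at 1.51, 1.49 and 1.95 FPKM in metastases 1 to 3, set against 1.195, 2.41 and 3.35 in the N134-RHAMMB and 1.78, 3.81 and 2.41 in the N134 tumours, with overlapping groups and adjusted p = 0.717, 0.415 and 0.863 in the 3 comparisons. Tfpi2 (ENSMUSG00000029664, chromosome 6, 3962595 to 3988919), a related matrix-bound inhibitor of plasmin and other proteases, was the one gene of the 16 called higher in metastases against both kinds of tumour. It stood at 5.74, 8.98 and 6.86 FPKM in metastases 1 to 3, set against 2.59, 1.74 and 4.21 in the N134-RHAMMB and 2.38, 3.98 and 2.35 in the N134 tumours. Metastases lay above all 6 tumours, by 1.12 on the log2(FPKM + 1) scale (SE 0.26, adjusted p = 0.0284) and by 1.08 on the log2(FPKM + 1) scale (SE 0.26, adjusted p = 0.0271). The call against N134-RHAMMB tumours was lost without metastasis 2 or 3, or N134-RHAMMB tumour 1 or 2 (adjusted p = 0.0624 to 0.105), and without N134-RHAMMB tumours 2 and 4 together (0.128). It was also lost without a filter (0.0597) and with the 2 groups alone (0.0560). The call against N134 tumours was lost without metastasis 2 or 3, or N134 tumour 1 or 3 (adjusted p = 0.0596 to 0.109), and without a filter (0.0532).

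Without library weights, genes of the vessel wall did not pass in any comparison. F8 (ENSMUSG00000031196, chromosome X, 75172715 to 75382615), which encodes the cofactor lacking in haemophilia A and is made by endothelial cells, stood at 3.40, 3.90 and 2.62 FPKM in metastases 1 to 3, set against 4.84, 4.29 and 3.18 in the N134-RHAMMB and 2.64, 3.45 and 2.38 in the N134 tumours. It overlapped between groups, at 0.41 (adjusted p = 0.399) between N134-RHAMMB and N134 tumours, and its locus overlaps Fundc2 on the other strand, as those of Plg and Habp2 overlap Slc22a3 and Nrap. Vwf, the platelet adhesion protein that carries factor VIII, stood at 1.38, 0.984 and 1.26 FPKM in metastases 1 to 3, set against 1.58, 1.02 and 1.04 in the N134-RHAMMB and 0.822, 0.677 and 2.47 in the N134 tumours. Thbd, thrombomodulin, which turns thrombin towards protein C, stood at 4.02, 2.37 and 3.29 FPKM in metastases 1 to 3, set against 2.62, 2.83 and 3.35 in the N134-RHAMMB and 4.45, 3.19 and 3.74 in the N134 tumours. These 3 genes showed no separation of groups. Procr, the endothelial protein C receptor, stood at 0.839 to 1.17 FPKM in metastases, 0.978 to 2.36 FPKM in N134-RHAMMB tumours and 0.788 to 2.30 FPKM in N134 tumours. Pros1, the protein C cofactor protein S, stood at 6.10, 8.37 and 6.67 FPKM in metastases 1 to 3, set against 3.60, 5.18 and 4.10 in the N134-RHAMMB and 7.28, 8.01 and 4.57 in the N134 tumours. Its metastases lay above the N134-RHAMMB tumours and overlapped the N134 tumours, and neither difference passed, at 0.60 (adjusted p = 0.157) and 0.10 (adjusted p = 0.859). With library weights alone, Pros1 passed against N134-RHAMMB tumours (0.66, adjusted p = 0.0488) and between the tumours (-0.58, adjusted p = 0.0301). Beside these, the summed level of 12 endothelial markers was 104 to 136 FPKM in metastases, 114 to 128 FPKM in N134-RHAMMB tumours and 118 to 151 FPKM in N134 tumours, and 0 of 11 tested were called in any comparison (4, 1 and 1 at an unadjusted p under 0.05, beside 16.7%, 21.4% and 12.8% of all genes). Of 6 markers of liver sinusoidal endothelium tested, 3 were higher in metastases than in N134-RHAMMB tumours. Against N134 tumours 3 were higher and 1 lower. Clec4g, Stab2 and Oit3 passed the filter only through the metastases and so had to be higher, so these counts of higher markers support nothing.

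Urokinase, its receptor and tissue-type plasminogen activator were lower in metastases than in N134 tumours. Plau (ENSMUSG00000021822, chromosome 14, 20836662 to 20843388), the urokinase-type activator of plasminogen, stood at 2.30, 2.37 and 2.04 FPKM in metastases 1 to 3, set against 3.14, 3.69 and 5.33 in the N134-RHAMMB and 6.31, 8.92 and 4.40 in the N134 tumours. Plaur (ENSMUSG00000046223, chromosome 7, 24462484 to 24475968), its receptor on cell surfaces, stood at 1.53, 1.04 and 1.45 FPKM in metastases 1 to 3, set against 2.04, 1.66 and 3.86 in the N134-RHAMMB and 5.47, 4.66 and 3.16 in the N134 tumours. Plat (ENSMUSG00000031538, chromosome 8, 22757727 to 22782844), the tissue-type activator, stood at 2.76, 1.58 and 2.95 FPKM in metastases 1 to 3, set against 3.47, 3.06 and 2.92 in the N134-RHAMMB and 4.71, 5.44 and 4.48 in the N134 tumours. In all 3 genes each metastasis lay under each N134 tumour. The differences from N134 tumours were -1.18 on the log2(FPKM + 1) scale (SE 0.23, adjusted p = 0.00868) for Plau, -1.19 on the log2(FPKM + 1) scale (SE 0.25, adjusted p = 0.0111) for Plaur and -0.80 on the log2(FPKM + 1) scale (SE 0.18, adjusted p = 0.0201) for Plat. Against N134-RHAMMB tumours Plau and Plaur did not overlap and Plat did, and none passed, at -0.62 (adjusted p = 0.197), -0.54 (adjusted p = 0.309) and -0.30 (adjusted p = 0.492). Between N134-RHAMMB and N134 tumours the same genes stood at -0.56 (adjusted p = 0.361), -0.65 (adjusted p = 0.317) and -0.50 (adjusted p = 0.3001), and each passed only with library weights (adjusted p = 0.0287, 0.0206 and 0.0280). The call of Plat against N134 tumours was lost without N134 tumour 1 or 2 (adjusted p = 0.0636 and 0.0879), with the 2 groups alone (0.0560), with the replicate block (0.0577) and without N134-RHAMMB tumours 2 and 4 (0.0558). That of Plaur was lost without N134 tumour 1 or 2 (0.0580 and 0.0502).

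F13a1 (ENSMUSG00000039109, chromosome 13, 36867178 to 37050244), the catalytic subunit of factor XIII that crosslinks fibrin and is made by macrophages and megakaryocytes, was lower in metastases. It stood at 1.03, 0.427 and 2.84 FPKM in metastases 1 to 3, set against 7.31, 5.94 and 4.42 in the N134-RHAMMB and 14.4, 14.9 and 5.80 in the N134 tumours. Metastases lay under all 6 tumours, with a difference of -1.61 on the log2(FPKM + 1) scale (SE 0.40, adjusted p = 0.0399) from N134-RHAMMB tumours and -2.41 on the log2(FPKM + 1) scale (SE 0.40, adjusted p = 0.00277) from N134 tumours. The call against N134-RHAMMB tumours was lost without metastasis 1 or 2, or any 1 N134-RHAMMB tumour, or N134 tumour 1 or 2 (adjusted p = 0.0513 to 0.158). It was also lost with the replicate block (0.159), without a filter (0.0816), at a mean of at least 5 FPKM (0.0602) and without N134-RHAMMB tumours 2 and 4 (0.236). The call against N134 tumours held in all 17 alternatives (adjusted p = 9.86e-04 to 0.0195). F13a1 and F13b, the 2 subunits of 1 plasma protein, differed in opposite directions, F13a1 lower and F13b higher in metastases than in N134 tumours.

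Most markers on the general macrophage and fibroblast lists were lower in metastases than in N134 tumours, as were F13a1, Plau, Plaur and Plat. The summed level of 12 macrophage markers was 222 to 372 FPKM in metastases, 346 to 463 FPKM in N134-RHAMMB tumours and 475 to 811 FPKM in N134 tumours. Of the 12, 9 were lower in metastases than in N134 tumours, beside 4.23% of all genes. Against N134-RHAMMB tumours 0 were called in metastases (5 at an unadjusted p under 0.05, beside 16.7% of all genes). Between N134-RHAMMB and N134 tumours 0 were called, with a median log2 difference of -0.635. There 10 had an unadjusted p under 0.05, beside 12.8% of all genes. Adgre1, a defining macrophage gene, stood at 4.20 to 5.62, 7.27 to 8.94 and 9.999 to 16.7 FPKM in metastases, N134-RHAMMB and N134 tumours. Markers of Kupffer cells, the macrophages of the liver, were mixed. Of 8, 7 were tested, and 2 were higher and 1 lower in metastases against each kind of tumour. Clec4f and C6 passed the filter only through the metastases and so had to be higher. The summed level of 12 fibroblast markers was 220 to 452 FPKM in metastases, 335 to 566 FPKM in N134-RHAMMB tumours and 705 to 996 FPKM in N134 tumours. Of these, 8 were lower in metastases than in N134 tumours, beside 4.23% of all genes. Against N134-RHAMMB tumours 4 were lower and 1 higher in metastases, beside 1.52% and 5.04% of all genes. In N134-RHAMMB against N134 tumours 2 were lower, beside 0.117% of all genes, with a median log2 difference of -0.94. There 10 had an unadjusted p under 0.05, beside 12.8% of all genes. Of 11 platelet and megakaryocyte markers 4 were tested, and 1 was called. The platelet chemokine Pf4 stood at 6.26 to 7.33, 13.8 to 21.6 and 11.2 to 72.7 FPKM in metastases, N134-RHAMMB and N134 tumours, and was called lower in metastases than in N134 tumours (-2.11, adjusted p = 0.0244). The other 3 did not pass, at -0.69 for Ppbp, -0.08 for Gp1bb and 0.71 for Itga2b against N134 tumours. The part of these cells in the 4 clotting genes was not tested.

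Hgfac (ENSMUSG00000029102, chromosome 5, 35041509 to 35048461), a plasma protease that activates hepatocyte growth factor, is secreted by the liver, yet was read in every subcutaneous tumour as well. It stood at 12.2, 13.8 and 12.5 FPKM in metastases 1 to 3, set against 9.83, 8.60 and 8.94 in the N134-RHAMMB and 6.13, 4.67 and 6.28 in the N134 tumours. No group overlapped another, with metastases highest and N134 tumours lowest. Metastases exceeded N134 tumours by 1.06 on the log2(FPKM + 1) scale (SE 0.14, adjusted p = 5.73e-04), a call that held in all 17 alternatives. They exceeded N134-RHAMMB tumours by 0.45 (adjusted p = 0.107), and N134-RHAMMB tumours exceeded N134 tumours by 0.60 (SE 0.14, adjusted p = 0.141), and neither passed. The difference between the tumours was called with library weights alone, its adjusted p running from 0.00325 to 0.706 over the alternatives. 

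The enzymes of glutamate carboxylation and the thrombin receptor were read in every library, and none passed in any comparison. Ggcx, the gamma-glutamyl carboxylase, stood at 16.9, 18.4 and 17.0 FPKM in metastases 1 to 3, set against 12.1, 9.09 and 17.5 in the N134-RHAMMB and 18.5, 13.6 and 14.2 in the N134 tumours. Vkorc1 (ENSMUSG00000096145, chromosome 7, 127893063 to 127895617), the epoxide reductase that recycles vitamin K and is blocked by warfarin, stood at 44.3, 44.4 and 52.6 FPKM in metastases 1 to 3, set against 40.3, 42.3 and 37.7 in the N134-RHAMMB and 40.9, 38.8 and 34.2 in the N134 tumours. A same-strand gene model, Gm21974, overlaps Vkorc1 in the annotation and makes its value uncertain. The differences of both enzymes ran from -0.27 to 0.45. Ggcx overlapped between groups, and Vkorc1 in metastases lay above both kinds of tumour (adjusted p = 0.365 and 0.138). F2r (ENSMUSG00000048376, chromosome 13, 95601804 to 95618459), the thrombin receptor PAR1, stood at 34.3, 20.4 and 22.8 FPKM in metastases 1 to 3, set against 18.6, 16.9 and 18.6 in the N134-RHAMMB and 16.8, 17.8 and 18.1 in the N134 tumours. Metastases lay above both kinds of tumour, led by metastasis 1, and the differences of 0.46 (adjusted p = 0.188) and 0.50 (adjusted p = 0.106) did not pass. Without metastasis 2 both did (0.61, adjusted p = 0.0430, and 0.64, adjusted p = 0.0260), and with library weights too (adjusted p = 0.0120 and 0.0136).

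**Figure D4:**
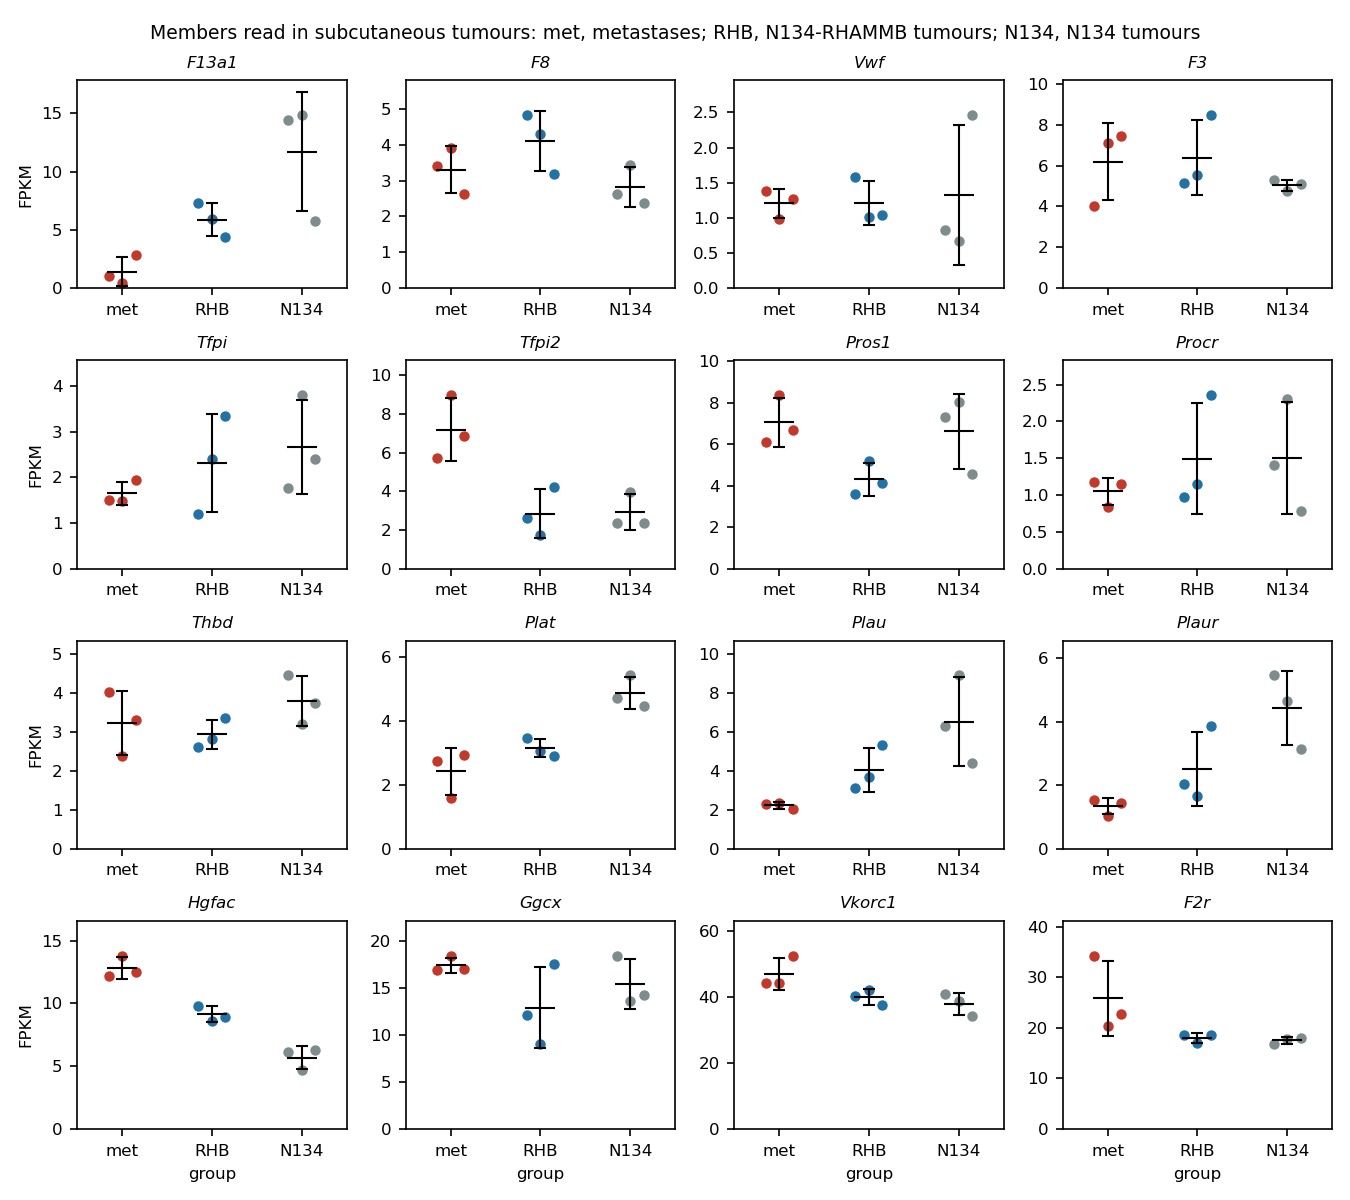
FPKM in each library (points) with the group mean and SD (bars, n = 3) for the 16 genes read in subcutaneous tumours, with metastases (met), N134-RHAMMB tumours (RHB) and N134 tumours (N134) from left to right in each panel. Tfpi2 and Hgfac are highest in metastases, Plau, Plaur, Plat and F13a1 lowest there, and F3, Tfpi and Vwf overlap throughout.

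Among 44 other genes of the pathway, 35 were tested. Metastases against N134-RHAMMB tumours gave 11 higher and 0 lower, and against N134 tumours 11 higher and 5 lower, beside 6.56% and 9.93% of all genes. Of the 11, 9 passed the filter only through the metastases and so had to be higher, so the count of 11 supports nothing. Of the other 26 genes, 2 were called higher in each comparison (Vtn and Serping1), and 5 lower than in N134 tumours. The medians of the 35 were 0.08 and 0.11, beside -0.06 and -0.03 over all genes. N134-RHAMMB against N134 tumours gave 0 of 35, with 8 at an unadjusted p under 0.05 (22.9%, beside 12.8% of all genes). Limma with library weights called 14, 3 higher and 11 lower (40%, beside 20.5% of all genes). Of 13 inhibitors and binding proteins 10 were tested, and 8 were higher in metastases than in N134-RHAMMB tumours, 7 of them among those that had to be. Serpinc1, antithrombin, the serpin that inhibits thrombin and factor X, stood at 167, 204 and 163 FPKM in metastases 1 to 3, set against 0.670, 0.281 and 0.333 in the N134-RHAMMB and 0.396, 0.680 and 0.368 in the N134 tumours. Apoh, beta-2-glycoprotein I, stood at 109, 142 and 122 FPKM in metastases 1 to 3, set against 0.223, 0.0559 and 0.489 in the N134-RHAMMB and 0.366, 0.124 and 0.0556 in the N134 tumours. Pzp, a broad protease trap, and C4bp differed from N134-RHAMMB tumours by 5.71 and 5.49. Of the 8, all but Serping1 stayed under 1 FPKM in every subcutaneous library. Among the other 4 called higher were Serpina10, the protein Z-dependent inhibitor (3.23), and Serping1, the C1 inhibitor (0.99). Against N134 tumours Serping1 was also called (0.57, adjusted p = 0.0335), and lost its call without N134-RHAMMB tumour 1 or any 1 N134 tumour (adjusted p = 0.0561 to 0.119), with the 2 groups alone (0.0658) and without N134-RHAMMB tumours 2 and 4 (0.0668).

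Serpine2, a cell-bound serpin that inhibits thrombin and urokinase, was lower in metastases than in N134 tumours, at -1.05 (adjusted p = 0.00885). Of 19 receptors and cofactors 15 were tested, and Vtn, vitronectin, an adhesion protein of plasma and matrix, was the only 1 higher in metastases (5.99 and 5.81). Thbs1, thrombospondin (-2.04, adjusted p = 0.00328), Anxa2, the annexin that binds plasminogen and its tissue-type activator (-0.99, adjusted p = 0.00751), and Itgb3, an integrin of platelets and vessels (-0.64, adjusted p = 0.0361), were lower than in N134 tumours. The call of Itgb3 was lost in 9 alternatives (adjusted p = 0.0508 to 0.149), among them the loss of metastasis 2 or 3, N134-RHAMMB tumour 1 or any 1 N134 tumour. Of 12 genes of synthesis and processing 10 were tested, and Fgl1, a fibrinogen-like liver protein (4.03 and 4.46), and Hpn, the liver protease hepsin (3.31 and 3.22), were higher in metastases. Mcfd2, which with Lman1 carries factors V and VIII out of the endoplasmic reticulum, stood at 29.5, 52.3 and 23.7 FPKM in metastases, against 19.9 to 20.5 FPKM in N134-RHAMMB tumours and 18.5 to 20.6 FPKM in N134 tumours. Its differences of 0.69 and 0.75 did not pass, and metastasis 2 was the highest. Without metastasis 3 both passed (0.93, adjusted p = 0.0266, and 0.99, adjusted p = 0.0164), and without metastasis 2 the difference from N134 tumours did (0.43, adjusted p = 0.0433). Library weights passed both (adjusted p = 0.0265 and 0.0313).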

How the data were processed

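The members, lists and tests were chosen with earlier results of these data known. RNA of the 9 libraries was extracted with a Qiagen column kit, per the labels' protocols. The tools named are Cufflinks 2.1.1, STAR 2.5.2 and bcl2fastq 2.19, with the build GRCm38, per the submitters' processing notes, which give no roles. The authors deposited FPKM values per gene and library with a status word, per the file headers. FPKM is relative to library size, so a gene's value falls when others take more reads. Strand and counts are not used here, so overlapping and near-identical genes have uncertain values.

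7 rows with a failed estimate were left out, and 102 rows that repeated a symbol gave way to the one with the highest mean, leaving 21944 genes, of which 12854 were tested. A value of 0 may be a failed estimate, so no single gene's difference is given against a group listed at 0, though such genes stay in the counts and medians. Differences are of log2(FPKM + 1), which understates changes of low genes, in 1 model over all 9 libraries (limma 3.58.1 in R 4.3.3, with an intensity trend and 6 residual degrees of freedom). Adjusted p is Benjamini-Hochberg over all genes tested, 2-sided, called below 0.05. Exact permutation of 3 against 3 libraries gives p = 0.1 at best, so it was left aside. Starts have 1 added to the table's, since 82.1% of 21810 rows then matched GENCODE M21 of the same build. Promoters are from RefSeq (GRCm38.p6). The fit was tested on simulated data. All 35 members could be named. Of each other pathway list, the up to 4 genes with the largest change in a comparison and, with under 6 passing, all of those could be named. Of these, 1 gene is not reported here. The alternatives tried were a pseudocount of 0.1, no filter, a mean of at least 5 FPKM, median-of-ratios scaling (factors 0.931 to 1.09), the 2 groups alone, a block for the replicate number, library weights, leaving out each library in turn and, chosen after seeing the data, N134-RHAMMB tumours 2 and 4 left out. The ratios of metastasis 2 were chosen after seeing the data too. Figures were drawn in Python 3.11.15.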

Additional observations from a re-analysis of the deposited data

How the results depend on the processing

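Of the 35 genes, the number called in metastases was 19 to 21 against N134-RHAMMB tumours and 22 to 25 against N134 tumours with 1 library left out, and 0 between the subcutaneous tumours. At a mean of at least 5 FPKM, which tests 17 of the 35, it was 10, 12 and 0, beside 347, 594 and 15 of all 9504 genes tested. Library weights called 7 of the 35 between the subcutaneous tumours (20%), and 14 of the other pathway genes (40%), beside 20.5% of all genes. With 1 library left out the other pathway genes gave 11 to 12, 14 to 18 and 0. Over all genes, limma called 843, 1276 and 25 in the 3 comparisons, and 650 to 1137, 882 to 1571 and 0 to 193 with 1 library left out. A mean of at least 5 FPKM gave 347, 594 and 15, from fewer genes tested. Library weights gave 1950 against N134-RHAMMB tumours and 2629 between the tumours. Without N134-RHAMMB tumours 2 and 4 the counts were 504 and 1 there, and the 2 groups alone gave 169 between the tumours. The cause of these shifts was not tested. With the replicate block limma called 646, 1097 and 1 genes. The labels do not say whether the numbers pair the samples. Same-numbered libraries' deviations correlated at -0.003 to 0.102 and differently numbered ones at -0.195 to 0.150. Such overlapping ranges cannot settle whether samples are paired. Low depth limits the subcutaneous values of the liver genes, some of which lie near that of 1 fragment.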

Other observations

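Of 4 protease-activated receptors, F2r and F2rl1 were higher in metastasis 1 than in the other metastases, while F2rl2 and F2rl3, at 0.455 FPKM or less in metastases, were highest in metastases 3 and 2. F2r stood at 34.3, 20.4 and 22.8 FPKM in metastases 1, 2 and 3, and F2rl1, the receptor PAR2 that trypsin and the factor VII complex cut, at 5.53, 1.21 and 2.33 FPKM. F2rl1 stood at 2.38 to 2.80 FPKM in N134-RHAMMB tumours and 1.73 to 2.33 FPKM in N134 tumours, and its differences in metastases, 0.02 and 0.24, did not pass (adjusted p = 0.984 and 0.745). The receptors were singled out after their values were seen.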
